A study of Mus musculus with 12 samples.

Results

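The response of wildtype mouse forebrain to valproic acid given before birth was examined in 6 of the 12 RNA sequencing libraries of the study, taken by their genotype and treatment labels. The comparison set 3 libraries of wildtype mice exposed to prenatal valproic acid against 3 libraries of wildtype mice with no exposure, across all genes of the deposited count table. The series describes the tissue as adult forebrain, and the sample labels give it as brain. The other 6 libraries came from Notch conditional knockout mice, labelled htr3a Notch KO, with and without the same exposure, and they served to estimate the spread between libraries and for a comparison at the end. The wildtype libraries carry no knockout in their labels. The sources used here do not give the dose or day of exposure, the solution given to unexposed mothers, the strain, the sex, the age in days or the number of litters. The labels do not say that libraries of a group came from separate animals, so p-values measure the spread between these libraries, which may be in part technical.

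Valproic acid is an antiepileptic and mood-stabilising drug that also inhibits histone deacetylases. Exposure of the fetus is a known risk for birth defects and autism in people, and exposure of pregnant rodents is widely used as a model of autism-related behaviour. The adult forebrain holds the cerebral cortex, the striatum, the olfactory bulbs and deeper nuclei. The principal cells of the striatum are GABAergic projection neurons of a direct pathway, marked by the dopamine receptor Drd1, and an indirect pathway, marked by the dopamine receptor Drd2. Both kinds rely on dopamine signalling through cyclic AMP.

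Total counts were 18139178 to 24944681 in the untreated libraries and 20279003 to 24155672 in the exposed libraries. Genes of the mitochondrial genome held 12.5% to 14.4% of counts in untreated libraries, and 13.4%, 13.996% and 16.4% in exposed libraries 1, 2 and 3. Levels below are CPM, counts scaled to 1000000 per library after TMM, a correction for differences in library composition. Emx1, a transcription factor of the dorsal forebrain, lay between 14.3 and 18.6 CPM in all 6 libraries.

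A pair of the 6 libraries stood apart from the rest. In untreated replicate 3, genes of the olfactory bulb were high: Cdhr1, a cadherin-related gene of mitral and tufted cells, was at 5.07, 5.57 and 37.1 CPM in untreated libraries 1, 2 and 3 and at 5.59, 4.99 and 5.61 CPM in the exposed libraries. Doc2g showed the same order, with 3.18, 4.52 and 32.1 CPM against 2.92, 3.48 and 4.23 CPM. In exposed replicate 3, Xist, which female cells transcribe from their silenced X chromosome, had 12 counts, against 7356 to 9907 in the other 5, and the Y-linked gene Ddx3y had 829 counts, against at most 1. By these genes the exposed wildtype group held libraries of both sexes and the untreated wildtype group did not; exposed knockout replicate 3 also lacked Xist, with 6 counts. Of the 161 genes called below, 6 lay on the X chromosome, which is 3.73% against 3.34% of all tested genes.

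Prenatal valproic acid was followed by lower levels of 124 genes and higher levels of 37 genes in adult wildtype forebrain, out of 17995 tested at an adjusted p of 0.05 (edgeR's quasi-likelihood test with Benjamini-Hochberg adjustment). Called genes made up 0.895% of those tested, with 0.206% higher and 0.689% lower. These shares are the background for the calls counted in gene lists below. The changes were small: the median fall was 1.31-fold, the median rise was 1.29-fold, and 27 falls and 2 rises exceeded 1.5-fold. The largest falls among named genes included Tac1, Drd1, Pde10a and Rxrg, listed as genes of striatal neurons. They also included Syt6 and Prkch, which are not listed as striatal. The largest rises included Frmd6, Kcnk9 and Per1. In each of the 161 the 3 exposed values lay all above or all below the 3 untreated ones, which was also so for 20.8% of all tested genes. Called or not, 48.5% of all tested genes were lower after exposure, the background for list members counted as lower or higher below. Most called genes were well expressed, with a median of 53.2 CPM against 13.4 CPM for all tested genes. By annotation 152 were protein-coding, while Gm6863 and Gm13835 were processed pseudogenes and 9630013A20Rik and Gm30177 antisense RNAs, whose reads the counting may not have told apart from those of a parent or partner gene. At an unadjusted p under 0.05 there were 2548 genes, or 14.2%.

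The number of calls rested on single libraries. Leaving out 1 library at a time left 1 to 36 genes higher and 13 to 119 genes lower. The fewest calls, 1 higher and 13 lower, came without untreated replicate 3, the library rich in olfactory bulb RNA. Without exposed replicate 3, the library lacking Xist, 25 were higher and 37 lower. With both left out, 4 were higher and 8 lower, and 9 of the original 161 were among them. Every one of the 161 kept its direction in each of these fits. This was largely fixed in advance, since no called gene overlapped between groups. The 13 genes called whichever single library was left out had all fallen: Spock3, Tac1, Syt6, Synpr, Rxrg, Pde7b, Syndig1l, Drd1, Anln, Tmem68, Lrrc10b, Prkch and Pcp4l1. With both libraries left out, Spock3, Tac1, Syt6, Synpr, Rxrg, Syndig1l, Drd1 and Pcp4l1 were still called as lower and Bhlhe40 as higher.

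**Figure D1:**
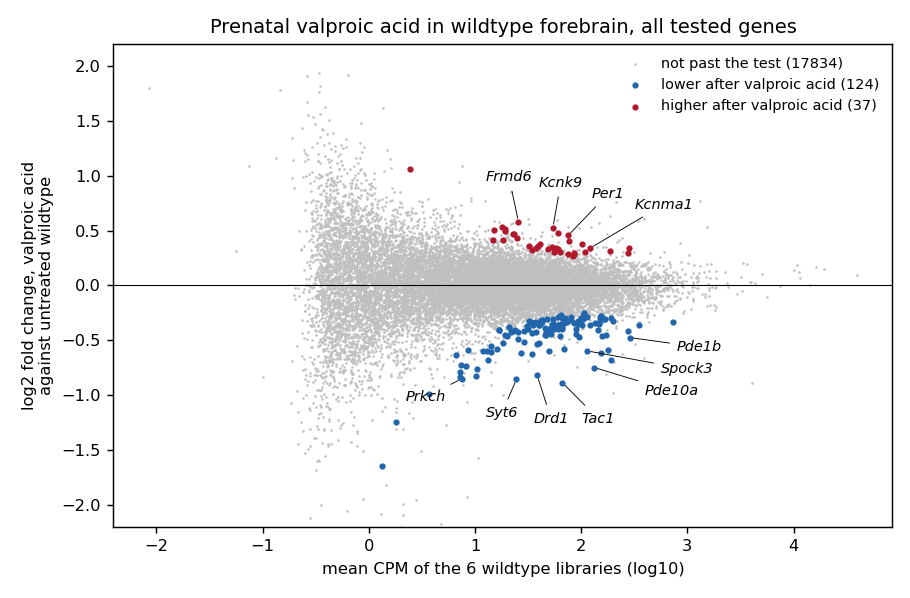
Each point is a tested gene, placed by the log10 of its mean CPM over the 6 wildtype libraries (horizontal) and its log2 fold change between exposed and untreated libraries (vertical). Blue points fell and red points rose past an adjusted p of 0.05, 124 and 37 genes; the vertical axis leaves out 16 genes beyond 2.2 in either direction, 1 of which passed the test.

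The substance P precursor Tac1 and the dopamine receptor Drd1, which define direct-pathway neurons, were among the largest falls. Tac1 was at 77.8, 88.8 and 92.8 CPM in untreated libraries 1 to 3 and at 46.3, 53.3 and 40.3 CPM in exposed libraries 1 to 3. The highest exposed library thus stayed well under the lowest untreated library, and the fold change was 1.85 (log2 -0.89 ± 0.10 SE, adjusted p = 0.000102). Drd1 was at 47.4, 51.0 and 49.1 CPM without exposure and at 24.9, 28.4 and 30.3 CPM with it. Its untreated libraries were close together and the highest exposed library was well below them, with a fold change of 1.77 (log2 -0.82 ± 0.12 SE, adjusted p = 0.00246). Slc35d3, a gene required for normal trafficking of the D1 receptor, was at 8.41, 9.10 and 10.2 CPM against 4.95, 5.28 and 5.30 CPM, a fall of 1.79-fold (adjusted p = 0.0155, and 0.117 without untreated replicate 3). Of 10 tested genes of the direct-pathway list, these 3 fell and none rose. The list's median log2 fold change was -0.47, against 0.01 over all tested genes. This gene list and the others were chosen with earlier results of these data known. The dynorphin precursor Pdyn was lower on average but did not pass, with 30.8, 37.1 and 31.6 CPM against 17.6, 27.7 and 19.4 CPM (adjusted p = 0.136). The muscarinic receptor Chrm4 was level, at 14.3 to 16.1 CPM against 14.3 to 20.4 CPM. In bulk tissue, fewer cells of a type and less RNA per cell cannot be told apart, and the amount of striatum in each library was not measured apart from these genes.

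Genes of the indirect pathway showed values of similar size without passing the test fitted to all 12 libraries. The enkephalin precursor Penk was at 238, 251 and 263 CPM in untreated and 144, 166 and 154 CPM in exposed libraries, a 1.62-fold difference (adjusted p = 0.103). The dopamine receptor Drd2 was at 38.5, 42.1 and 36.9 CPM against 21.9, 25.6 and 25.4 CPM, a 1.61-fold difference (adjusted p = 0.134). In both genes the wildtype groups were clearly apart. Untreated knockout libraries, which enter the shared estimate of the spread, were widely spread, at 291, 192 and 173 CPM for Penk. Their part in these results was not tested. The adenosine receptor Adora2a, at 63.0 to 70.3 CPM against 39.0 to 45.7 CPM, and the orphan receptor Gpr6, at 16.1 to 21.1 CPM against 9.24 to 10.5 CPM, followed the same pattern, with adjusted p of 0.206 and 0.0634. When only the 6 wildtype libraries were fitted, all 4 genes passed: adjusted p was 3.74e-05 for Penk, 0.000228 for Drd2, 0.000132 for Adora2a and 0.000228 for Gpr6. With 49 genes higher and 172 lower, that fit made more calls than the fit of all 12 libraries. It kept 148 of the 161 calls of that 12-library fit. With all 12 libraries none of 7 tested genes of the list was called and 6 were lower. Of the 7, 5 did not overlap between groups, against 20.8% of all tested genes, and the median log2 fold change was -0.64.

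Listed genes of both kinds of striatal projection neuron were lower throughout. All 22 tested genes of this list were lower in the exposed group and 21 did not overlap between groups, against 48.5% and 20.8% of all tested genes. Of the 22, 9 passed the test, against 0.895% of all tested genes. None of the 9 rose, and the list's median log2 fold change was -0.42. The library means of log2 CPM over the list were 6.91, 6.94 and 6.86 without exposure and 6.41, 6.53 and 6.48 with it. Untreated replicate 3 was the lowest of its group and exposed replicate 3 the middle one.

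Called genes included 3 cyclic nucleotide phosphodiesterases, of which Pde7b alone was called whichever library was left out. Pde10a, the main dual-substrate phosphodiesterase of striatal projection neurons, was at 165, 176 and 158 CPM without exposure and at 92.6, 106 and 99.0 CPM with it. The groups were well apart, with a fall of 1.68-fold (log2 -0.75 ± 0.14 SE, adjusted p = 0.0317, and up to 0.163 with a library left out). Pde7b, a cyclic AMP phosphodiesterase, was at 44.9, 44.3 and 46.3 CPM against 31.4, 31.8 and 30.2 CPM, tight within each group and 1.45-fold lower after exposure (adjusted p = 0.002). Pde1b, a calmodulin-dependent phosphodiesterase, fell from 342, 336 and 318 CPM to 226, 248 and 243 CPM, or 1.39-fold (adjusted p = 0.0456, and up to 0.198 with a library left out). These were the 3 called genes among 33 tested genes of G-protein and cyclic nucleotide signalling, a list whose median log2 fold change was -0.07, and -0.0037 without exposed replicate 3. Adcy5, the main adenylyl cyclase of the striatum, was at 487, 468 and 413 CPM against 327, 385 and 408 CPM, close in replicate 3 of each group (adjusted p = 0.129). Gng7, the G-protein gamma subunit that works with it, was at 520, 488 and 444 CPM against 349, 408 and 398 CPM (adjusted p = 0.0919). Pkia, an inhibitor of protein kinase A outside the lists, fell 1.24-fold, from 187, 186 and 187 CPM to 155, 150 and 147 CPM (adjusted p = 0.0216, and 0.112 without untreated replicate 3).

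Further genes of the list for both kinds of striatal projection neuron were lower, among them a retinoid X receptor and Ras-family regulators. Rxrg, a retinoid X receptor subtype enriched in the striatum, was at 42.4, 42.9 and 39.2 CPM against 26.3, 26.4 and 27.8 CPM. Its exposed libraries were nearly equal and all far below the untreated ones, a fall of 1.546-fold (adjusted p = 0.00139). Of 16 tested retinoid signalling genes Rxrg alone was called and 6 were higher, with a median log2 fold change of -0.09. Syndig1l fell 1.49-fold (adjusted p = 0.00246), from 77.2 to 88.5 CPM to 51.7 to 58.3 CPM, and Lrrc10b fell 1.39-fold (adjusted p = 0.00672). Rasd2, the small GTPase Rhes, fell 1.37-fold from 207, 201 and 189 CPM to 141, 147 and 148 CPM (adjusted p = 0.0189). Rasgrp2, an exchange factor for Rap GTPases, fell 1.32-fold (adjusted p = 0.0188), and Strip2 fell 1.44-fold (adjusted p = 0.0125). Rasd2 was not called in any of the 6 fits that left a library out, where its adjusted p reached 0.0963. Rasgrp2 was called in 2 of these 6 and Strip2 in 3, with adjusted p up to 0.0956 and 0.0909. Ppp1r1b, which encodes the dopamine-regulated phosphatase inhibitor DARPP-32, was at 466, 481 and 477 CPM against 286, 316 and 301 CPM. The wildtype groups were well apart, but the test over 12 libraries did not call it (adjusted p = 0.219). Untreated knockout libraries ran from 323 to 593 CPM, and their part in that result was not tested. Fitted in the 6 wildtype libraries alone, Ppp1r1b passed, at an adjusted p of 5.05e-05.

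**Figure D2:**
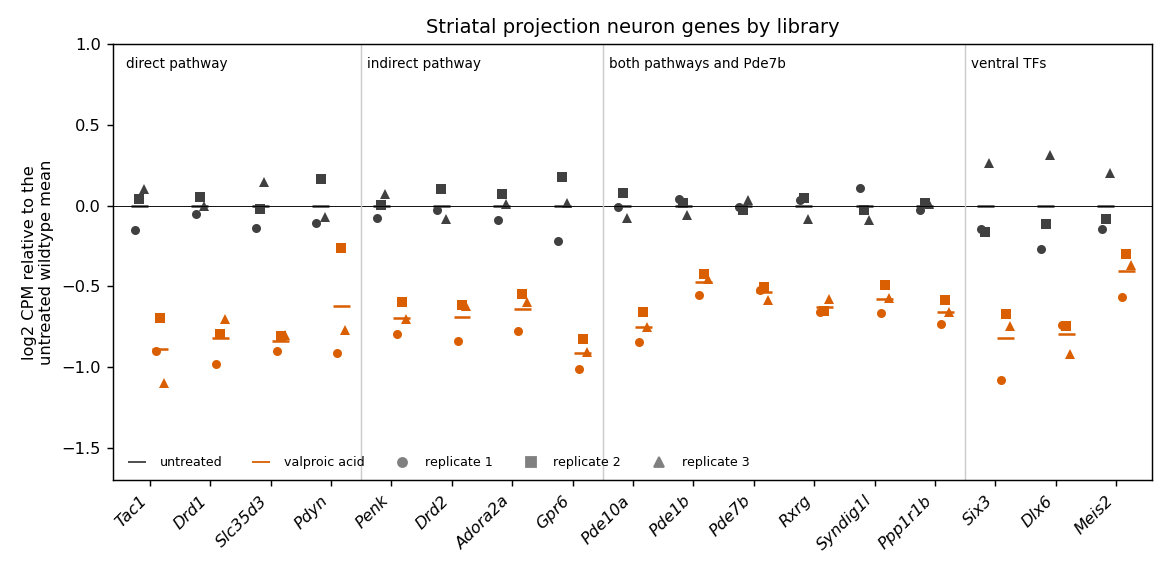
Log2 CPM of 17 genes in each of the 6 wildtype libraries, relative to the untreated mean (dark, untreated; orange, exposed; circles, squares and triangles, replicates 1, 2 and 3; bars, group means). Pdyn, Penk, Drd2, Adora2a, Gpr6 and Ppp1r1b did not pass the 12-library test; in all 17 genes the 3 exposed libraries lie below the 3 untreated ones, which was part of the naming rule for some of them.

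Promoters were read for genes that moved together, because cyclic AMP acts on transcription through the factor CREB, whose half-site is TGACG, or CGTCA on the other strand. In RefSeq promoters of the build GRCm38.p6, taken as the 250 bases before a start site, the half-site was found on either strand in 26.4% of 125 promoters of 94 genes that fell and in 28.1% of 32 promoters of 26 genes that rose. The shares were 24.5% for promoters of tested genes and 17.8% for all 32851 promoters. A match describes letters in this window and not binding. The promoter of Tac1, the most strongly lowered striatal peptide, and 1 promoter of Per1, a clock gene that rose, are shown with the half-site in capitals. They lie at chr6:7554811-7555060 and chr11:69099902-69100151, both on the plus strand, and hold 2 matches and 1 match. They are shown because they hold the half-site; it was not found in either of 2 promoters of Drd1 or 2 of Pde10a, which are not printed.
Tac1: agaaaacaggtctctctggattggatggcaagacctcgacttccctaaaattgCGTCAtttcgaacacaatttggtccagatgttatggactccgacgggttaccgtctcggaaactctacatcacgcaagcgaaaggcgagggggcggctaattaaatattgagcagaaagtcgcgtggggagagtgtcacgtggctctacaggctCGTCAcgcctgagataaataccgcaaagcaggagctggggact
Per1: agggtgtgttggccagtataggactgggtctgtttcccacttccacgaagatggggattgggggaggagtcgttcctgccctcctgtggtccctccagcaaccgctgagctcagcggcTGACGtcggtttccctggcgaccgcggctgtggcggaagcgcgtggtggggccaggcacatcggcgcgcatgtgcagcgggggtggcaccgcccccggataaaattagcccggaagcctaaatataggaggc

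Transcription factors of the ventral forebrain, which specify striatal, olfactory and interneuron lineages, were lower in part. Of 22 tested, 4 fell, none rose and 19 were lower. Over all tested genes 0.689% fell and 48.5% were lower. The list's median log2 fold change of -0.54 became -0.28 without untreated replicate 3. Six3, needed for striatal projection neurons, was at 11.8, 11.7 and 15.7 CPM against 6.20, 8.23 and 7.80 CPM, a fall of 1.77-fold (adjusted p = 0.017, and 0.163 without untreated replicate 3). Dlx6 was at 7.69, 8.55 and 11.5 CPM against 5.55, 5.52 and 4.90 CPM, 1.73-fold lower (adjusted p = 0.0244, and 0.236 without untreated replicate 3). Meis2 was at 148, 154 and 187 CPM against 110, 133 and 126 CPM, 1.33-fold lower (adjusted p = 0.0188, and 0.182 without untreated replicate 3). Untreated replicate 3 was the highest library in each of these 3 genes, as it was in the olfactory bulb list, whose summed level was 397 CPM there and 142 to 205 CPM in the other 5; the part of that library's tissue in these falls was not tested. The groups stayed apart without it in all 3. Foxp2, a forkhead factor of striatum and deep cortex, was at 16.1, 16.4 and 17.9 CPM against 10.5, 12.6 and 11.3 CPM, 1.47-fold lower (adjusted p = 0.0208, and up to 0.163 with a library left out), and did not stand out in replicate 3. Its relative Foxp1 was at 65.9, 69.8 and 66.1 CPM against 58.4, 56.6 and 54.9 CPM and did not pass (adjusted p = 0.104). Dlx1 was at 9.50, 13.0 and 24.0 CPM against 10.5, 11.3 and 10.04 CPM, so that its groups overlapped.

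Further genes that fell included proteins of synapses and of the cell surface. Spock3, a secreted proteoglycan of the testican family, had the smallest p, with 133, 138 and 142 CPM against 96.2, 90.7 and 85.6 CPM. It was 1.51-fold lower with little spread (log2 -0.60 ± 0.07 SE, adjusted p = 0.000102). Syt6, a synaptotagmin of corticothalamic and other neurons, was at 30.7, 29.5 and 34.9 CPM against 16.4, 20.1 and 16.0 CPM, 1.81-fold lower (adjusted p = 0.000159). Synpr, the vesicle protein synaptoporin, was at 173, 174 and 207 CPM against 124, 124 and 112 CPM, 1.54-fold lower (adjusted p = 0.000539). Pcp4l1, a small calmodulin-binding protein relative, was at 192, 193 and 255 CPM against 132, 149 and 144 CPM, 1.51-fold lower (adjusted p = 0.00779). Synpr and Pcp4l1 were highest in untreated replicate 3, and both were still called without it. Synpr was the only called gene of the olfactory bulb list, whose median log2 fold change was -1.57, and -0.14 without that library. Syt6 also belonged to the deep-layer cortical list, in which few members passed: of 14 tested, Syt6 and Foxp2 fell, the layer 6 factor Tle4 was at 48.9 to 51.3 CPM against 41.9 to 44.9 CPM (adjusted p = 0.193), and the layer 5 factor Fezf2 was higher, at 22.2 to 24.3 CPM against 26.8 to 29.1 CPM (adjusted p = 0.114). The list's median log2 fold change was -0.07, or -0.03 to -0.11 with 1 library left out.

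A kinase, an actin-binding protein, a GTPase and several receptors also fell, by 1.23-fold to 1.80-fold. Prkch, protein kinase C eta, was at 10.3, 9.27 and 9.43 CPM against 5.03, 6.38 and 4.64 CPM, 1.80-fold lower (adjusted p = 0.00672). Anln, the actin-binding protein anillin, was at 33.2, 29.4 and 35.03 CPM against 19.9, 23.8 and 19.9 CPM, 1.54-fold lower (adjusted p = 0.00328), and no library of one group reached the other. Rem2, a GTPase that regulates calcium channels, fell 1.604-fold (adjusted p = 0.0246), and Oprk1, the kappa opioid receptor to which dynorphin binds, fell 1.66-fold from 9.29, 12.6 and 8.69 CPM to 6.04, 6.47 and 5.76 CPM (adjusted p = 0.0328). Cd4, best known as the coreceptor of helper T cells, fell 1.70-fold from 13.4, 13.8 and 12.6 CPM to 8.35, 8.10 and 6.88 CPM (adjusted p = 0.0345). Rem2, Oprk1 and Cd4 were called in at most 1 of 6 fits with a library left out, with adjusted p up to 0.183, 0.138 and 0.154. Gabra4, the GABA-A receptor subunit alpha 4, was the only member called among 16 tested GABA-A receptor and chloride transporter genes, at 107, 113 and 114 CPM against 93.9, 94.98 and 81.8 CPM (1.23-fold lower, adjusted p = 0.0422, and up to 0.209 with a library left out). Adra2c, the alpha 2C adrenergic receptor, fell 1.26-fold (adjusted p = 0.0482, and up to 0.201).

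Some members of lists for mitochondria, proteasomes and translation also fell, each by under 1.5-fold. Of 75 tested nuclear genes of oxidative phosphorylation, 65 were lower and 41 were without overlap, against 48.5% and 20.8% of all tested genes. Of the 75, 4 passed. The median log2 fold change was -0.13, which was -0.08 without untreated replicate 3. Ndufs4, a subunit of complex I, was at 102, 106 and 110 CPM against 84.6, 81.5 and 82.2 CPM, 1.28-fold lower (adjusted p = 0.0123, and 0.0841 without untreated replicate 3). Atp5f1, of ATP synthase, was at 390, 406 and 388 CPM against 303, 328 and 289 CPM, 1.29-fold lower (adjusted p = 0.016, and up to 0.0737 with a library left out). Ndufv2 and Ndufb5, also of complex I, fell 1.24-fold and 1.19-fold. The 13 protein-coding genes of the mitochondrial genome had a median log2 fold change of 0.15, and none passed. The groups overlapped in every one of them, and the median was 0.05 without exposed replicate 3 and 0.08 without untreated replicate 3. Of 74 tested mitochondrial ribosomal protein genes, listed after values were seen, 71 were lower, against 48.5% of all tested genes. None of the 74 was called (median -0.17).

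Among 37 tested proteasome subunit genes, a list drawn up after values were seen, 33 were lower, against 48.5% of all tested genes. Psmc6, Psma3 and Psmb6 fell, by 1.36-fold, 1.25-fold and 1.22-fold, where 0.689% of all tested genes fell. With a library left out their adjusted p reached 0.0841, 0.192 and 0.208. Psmc6, an ATPase of the regulatory particle, was at 91.4, 109 and 108 CPM against 76.9, 78.5 and 71.4 CPM. Of 12 tested subunit genes of the initiation factor eIF3, also listed after values were seen, Eif3i, Eif3e and Eif3m fell, against 0.689% of all tested genes. Their falls were 1.27-fold, 1.22-fold and 1.21-fold, while the list's median was -0.06. Of 80 tested cytosolic ribosomal protein genes, listed likewise, none was called and 63 were lower, against 48.5% of all tested genes. Without overlap were 16 of the 80, against 20.8% of all tested genes. The median of -0.11 was -0.05 without untreated replicate 3. Eif4a2, an initiation factor helicase and the most abundant of all called genes, fell 1.26-fold from 747, 813 and 884 CPM to 672, 672 and 600 CPM (adjusted p = 0.0473, and up to 0.282 with a library left out). Hprt, a purine salvage enzyme often used as a reference gene, was at 162, 190 and 191 CPM against 135, 137 and 122 CPM, 1.38-fold lower (adjusted p = 0.00779, and 0.0727 without untreated replicate 3). H3f3a, which encodes histone H3.3, fell 1.25-fold (adjusted p = 0.0245, and up to 0.192 with a library left out). Dpy30, a subunit of histone H3 methyltransferase complexes, fell 1.33-fold (adjusted p = 0.0377). Of 11 tested histone deacetylase genes, the family that valproic acid inhibits, none was called and the median log2 fold change was -0.03, or -0.04 to 0.02 with 1 library left out.

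Transcript length moved with these small changes. The longest annotated transcript had a median of 2234 bases in genes that fell, 4623 in genes that rose and 3106 in all tested genes, and their median GC content was 43.7%, 53.9% and 49.7%. Over 5 equal groups of tested genes from shortest to longest, the median log2 fold change was -0.07, -0.02, 0.00, 0.02 and 0.06. The median deviation of the group of shortest genes from the mean of the 6 libraries was 0.00, 0.04 and 0.08 in untreated libraries 1, 2 and 3 and -0.05, -0.05 and 0.02 in the exposed ones, on the log2 scale. Exposed and untreated libraries overlapped for these shortest genes, and untreated replicate 3 was again the most extreme. For the group of longest genes the deviations were -0.002, -0.030 and -0.049 in untreated libraries 1, 2 and 3. They were 0.028, 0.033 and 0.029 in the exposed ones, without overlap. With an offset for length and GC content, a setting added after the data were seen, 12 genes were higher and 68 lower, and 66 of the original 161 were among them. Tac1, Drd1, Rxrg, Syt6, Spock3, Pde7b and Pde1b kept their calls (adjusted p from 0.000304 to 0.0218). The call of Pde10a was lost (0.0719) although its log2 fold change was larger in size, -0.84 against -0.75. Calls were also lost for Psmc6 (0.109), Psma3 (0.091), Psmb6 (0.1), Atp5f1 (0.208), Ndufv2 (0.142), Eif3e (0.146), Eif3m (0.487), Eif4a2 (0.174) and Hprt (0.0912), while Ndufs4 (0.0317), Ndufb5 (0.0451) and Eif3i (0.0385) kept theirs. Of the 37 genes that rose 10 were still called, among them Frmd6, Kcnk9, Kcnh7, Per1 and Taf15 (adjusted p from 0.00983 to 0.0343). Those not called included Kcnma1 (0.0511), Kcnj9 (0.0503), Kcnab3 (0.0848), Unc5d (0.0587), Unc13a (0.226), Bhlhe40 (0.095), Chgb (0.066) and Ddit4 (0.0511). The part of transcript length in the small changes was not tested further.

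Genes that rose included several potassium channels. Of 41 tested, 35 were higher and 17 did not overlap between groups, against 20.8% of all tested genes. Of the 41, 4 rose and none fell, with a median log2 fold change of 0.14. Kcnk9, the acid-sensitive leak channel TASK-3, was at 46.9, 46.5 and 39.8 CPM in untreated and 64.3, 61.1 and 66.4 CPM in exposed libraries. The exposed libraries were all above the highest untreated one, and the rise was 1.44-fold (log2 0.53 ± 0.10 SE, adjusted p = 0.0153). Kcnma1, the pore of the large-conductance calcium-activated channel, was at 111, 110 and 102 CPM against 138, 134 and 136 CPM, 1.27-fold higher (adjusted p = 0.0155). Kcnj9, a subunit of G-protein-gated inward rectifiers, rose 1.30-fold from 97.0, 93.8 and 76.2 CPM to 120, 116 and 112 CPM (adjusted p = 0.0188), and Kcnh7, an ERG-type channel, rose 1.28-fold (adjusted p = 0.0192). Without untreated replicate 3 these adjusted p-values were 0.112, 0.113, 0.169 and 0.163, with log2 fold changes of 0.45, 0.30, 0.28 and 0.33. Kcnab3, an auxiliary subunit outside the list, rose 1.29-fold (adjusted p = 0.0412). Kcnc1, a channel of fast-spiking neurons, was at 103, 102 and 104 CPM against 130, 124 and 118 CPM and did not pass (adjusted p = 0.055). Kcnd2 went the other way without passing, at 62.4, 62.4 and 72.1 CPM against 55.5, 58.7 and 49.6 CPM (adjusted p = 0.162).

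Frmd6, a scaffold that acts upstream of Hippo signalling, had the largest rise among the genes taken by the naming rule, from 24.2, 16.99 and 20.4 CPM to 30.4, 30.5 and 31.7 CPM. The exposed libraries were nearly equal and the untreated ones spread, with a rise of 1.49-fold (adjusted p = 0.00779, and 0.057 without untreated replicate 3). Per1, a repressor in the circadian clock that also responds to activity and glucocorticoids, was at 72.6, 63.9 and 54.7 CPM against 84.9, 94.8 and 82.3 CPM, 1.37-fold higher (adjusted p = 0.0123, and 0.1 without untreated replicate 3). Bhlhe40, another clock repressor, was at 67.9, 65.1 and 65.1 CPM against 93.4, 95.4 and 72.5 CPM, 1.32-fold higher (adjusted p = 0.0391). Exposed replicate 3 was the low library, and without it the adjusted p was 0.00575. Bhlhe40 was called in 1 of 6 fits with a library left out, with an adjusted p of 0.220 without untreated replicate 3. Of 20 tested clock genes these 2 rose and none fell, with 13 higher and a median log2 fold change of 0.08, which was 0.05 without untreated replicate 3. Nr1d1, the clock receptor REV-ERB alpha, was at 67.5 to 72.9 CPM against 76.9 to 90.1 CPM and did not pass (adjusted p = 0.0828).

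Immediate early genes, induced within minutes of neuronal activity, were higher on average with a wide spread. Of 29 tested, 24 were higher, against 9264 of all 17995 tested genes. The list's median log2 fold change was 0.31, but Per1 alone was called. Fos was at 11.3, 9.21 and 7.30 CPM against 17.2, 18.5 and 11.7 CPM, 1.70-fold apart (adjusted p = 0.0784). Arc was at 257, 118 and 97.2 CPM against 280, 311 and 209 CPM, so that its groups overlapped (adjusted p = 0.471). Exposed replicate 3 was the lowest exposed library in both, as in Egr4, which was at 27.2, 21.5 and 20.5 CPM against 34.1, 36.7 and 25.5 CPM with overlapping groups (adjusted p = 0.0614). Without that library the adjusted p was 0.0224 for Fos and 0.00941 for Egr4, while without untreated replicate 3 it was 0.314 and 0.294, and each was called in 2 of 6 such fits.

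Unc5d, a netrin receptor of upper-layer cortical neurons, was at 20.4, 17.5 and 20.6 CPM against 29.9, 26.2 and 25.1 CPM, 1.39-fold higher (adjusted p = 0.0214). It was the single gene called among 15 upper-layer genes, of which 13 were higher, with a median log2 fold change of 0.20 that became 0.07 without untreated replicate 3. Ddit4, a stress-induced inhibitor of mTOR signalling, was at 54.7, 51.4 and 45.1 CPM against 65.5, 60.5 and 84.3 CPM, 1.39-fold higher, with exposed replicate 3 the highest (adjusted p = 0.0296, and 0.0933 without it). Fitted in the 6 wildtype libraries alone, Ddit4 did not pass (adjusted p = 0.0923). Unc13a, the vesicle priming factor Munc13-1, rose 1.23-fold (adjusted p = 0.0472) and was the only called gene among 31 presynaptic genes, of which 27 were higher. Chgb, the secretory granule protein chromogranin B, rose 1.27-fold from 252, 246 and 256 CPM to 343, 317 and 295 CPM (adjusted p = 0.0276). Taf15, an RNA-binding protein, rose 1.28-fold from 43.9, 45.02 and 51.3 CPM to 58.7, 55.4 and 64.9 CPM (adjusted p = 0.0287). None of the genes of this paragraph was called in more than 3 of the 6 fits that left out a library.

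**Figure D3:**
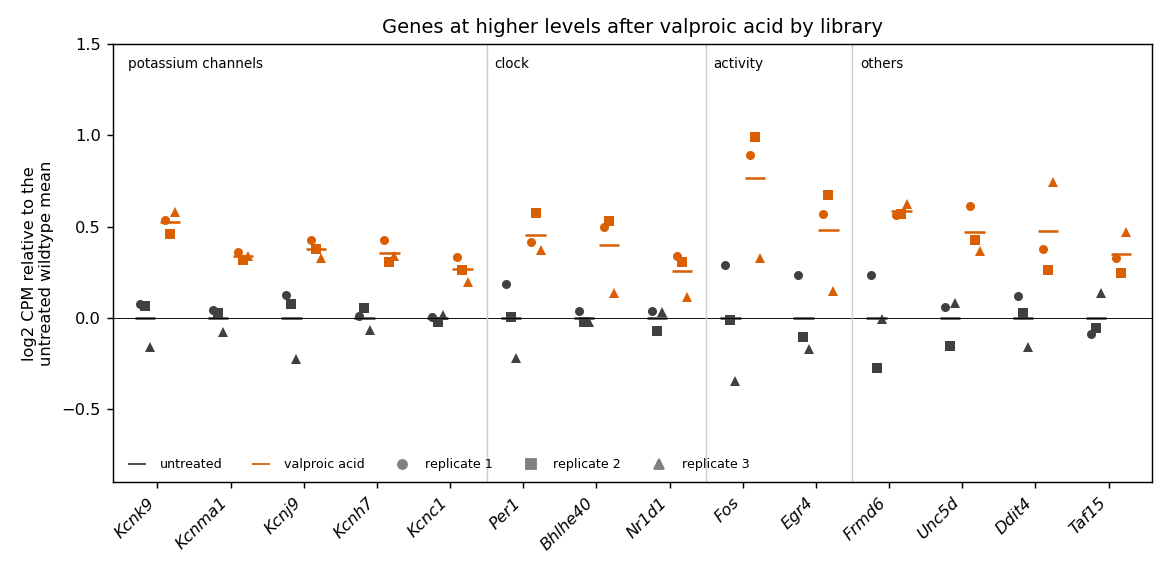
Log2 CPM of 14 genes in each of the 6 wildtype libraries, relative to the untreated mean (dark, untreated; orange, exposed; circles, squares and triangles, replicates 1, 2 and 3; bars, group means). Kcnc1, Nr1d1, Fos and Egr4 did not pass the test; exposed replicate 3 lies well below the other exposed libraries for Bhlhe40, Fos and Egr4 and above them for Ddit4.

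Lists for other cell types showed few calls. Of 19 tested microglia genes 17 were higher, against 9264 of all 17995 tested genes, and none was called. Their median log2 fold change was 0.10, and their summed level was 586 to 588 CPM without and 629 to 644 CPM with exposure. Of 18 oligodendrocyte genes 14 were lower and none was called (median -0.11, and -0.05 to -0.18 with 1 library left out, summed level 10790 to 11466 CPM and 9297 to 11606 CPM). Of 17 endothelial and pericyte genes, Itm2a fell, 1.30-fold (adjusted p = 0.0188, and up to 0.0823 with a library left out), and 14 were higher. Astrocyte, choroid plexus, meningeal, ependymal, hippocampal, thalamic and neurogenesis lists had no called gene, nor did autism risk genes (34 tested, median 0.07), glutamate receptors and scaffolds (37, 0.01, and up to 0.06 with 1 library left out) or Notch pathway genes (28, 0.10, and up to 0.16). Slc17a7, the vesicular glutamate transporter of cortical neurons, was at 979, 990 and 842 CPM against 1108, 1077 and 1219 CPM (adjusted p = 0.0848). Gad1, which makes GABA, was at 207, 206 and 302 CPM against 189, 202 and 163 CPM (adjusted p = 0.276), with untreated replicate 3 the highest.

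Several list medians moved with a single library. The olfactory bulb list had a median of -1.57, which was -0.14 without untreated replicate 3, and the hypothalamic list a median of -0.84, which was 0.11 without it. The neuropeptide Avp, from the hypothalamic list, was at 4.18, 15.1 and 54.8 CPM against 1.42, 34.3 and 0.61 CPM. Blood cell genes, led by the haemoglobin gene Hbb-bs, were lower in 7 of 7 (median -0.80, summed level 162 to 243 CPM and 101 to 144 CPM), none called, with a median of -0.51 without untreated replicate 3. Cholinergic neuron genes, which mark interneurons of the striatum and cells of the basal forebrain, were lower in 8 of 8 (median -0.64, and -0.45 to -0.999 with 1 library left out), none called. Chat, the acetylcholine-synthesising enzyme, was at 3.66, 2.21 and 3.43 CPM against 1.38, 2.66 and 1.43 CPM. The medians of the 3 striatal lists stayed between -0.33 and -0.70 whichever wildtype library was left out.

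**Figure D4:**
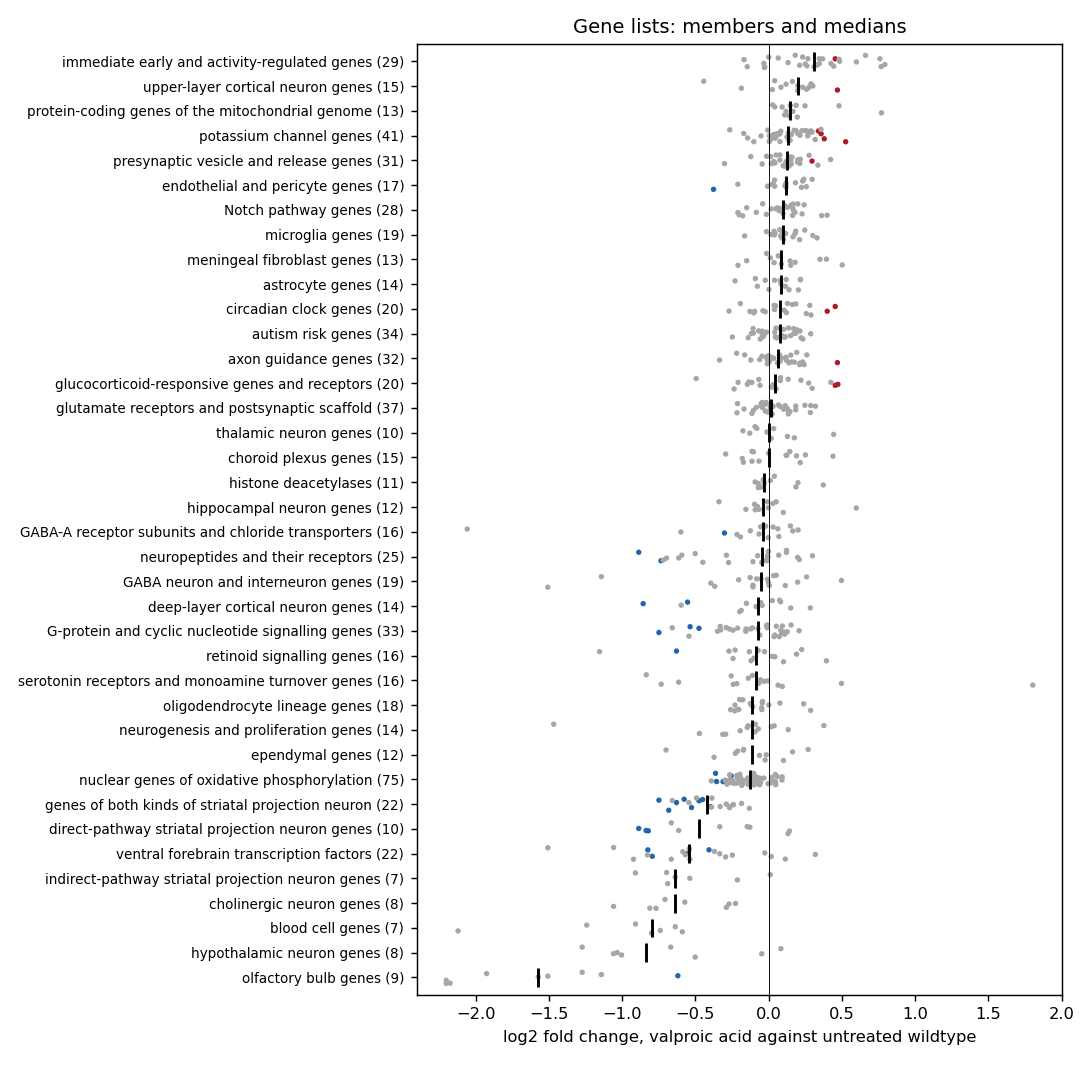
Each row is 1 of 38 gene lists with its number of tested genes; points are the members' log2 fold changes between exposed and untreated wildtype libraries (blue fell, red rose, grey not past the test) and black bars are the list medians. The 3 striatal lists and the ventral factors lie between -0.42 and -0.64, and 2 olfactory bulb points are drawn at the limit of -2.2.

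Whether the effect of valproic acid in wildtype differed from that in the Notch knockout was tested as an interaction over all 12 libraries. The sources used here do not name the Notch gene removed or the driver of its deletion. Notch1 was at 16.6 to 20.0 CPM in untreated wildtype and 16.4 to 17.6 CPM in untreated knockout libraries. No gene passed the interaction test with edgeR at an adjusted p of 0.05, and 1075 genes, or 5.97%, had an unadjusted p under 0.05. Within the knockout, 10 genes (0.0556%) were called, 3 higher (0.0167%) and 7 lower (0.0389%). The wildtype contrast chose the 161 genes, so a smaller value in other libraries is built into the comparison, and sizes are given side by side only. Of the 161, 154 had the same sign in knockout, where 62.7% of all tested genes did, and 157 were smaller in size. Median log2 fold changes in knockout were -0.21 for the genes that fell in wildtype and 0.16 for those that rose. Spock3, Pde7b, Trim23 and Osbpl8 fell in both genotypes. Spock3 was at 131, 122 and 114 CPM in untreated and 83.4, 92.9 and 93.1 CPM in exposed knockout libraries, 1.36-fold lower (adjusted p = 0.00838). Tac1 was at 81.5, 68.7 and 64.6 CPM against 50.7, 48.8 and 52.6 CPM in knockout, 1.41-fold apart (adjusted p = 0.0593). Rxrg was at 37.9, 28.5 and 32.5 CPM against 29.5, 29.9 and 34.0 CPM in knockout, where its groups overlapped, and its interaction of -0.55 ± 0.13 SE on the log2 scale had an unadjusted p of 0.000297 and an adjusted p of 0.833. Kcnh7 and Unc5d, which rose in wildtype, had log2 fold changes of -0.08 and -0.07 in knockout, with the same adjusted p of 0.833 for the interaction.

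**Figure D5:**
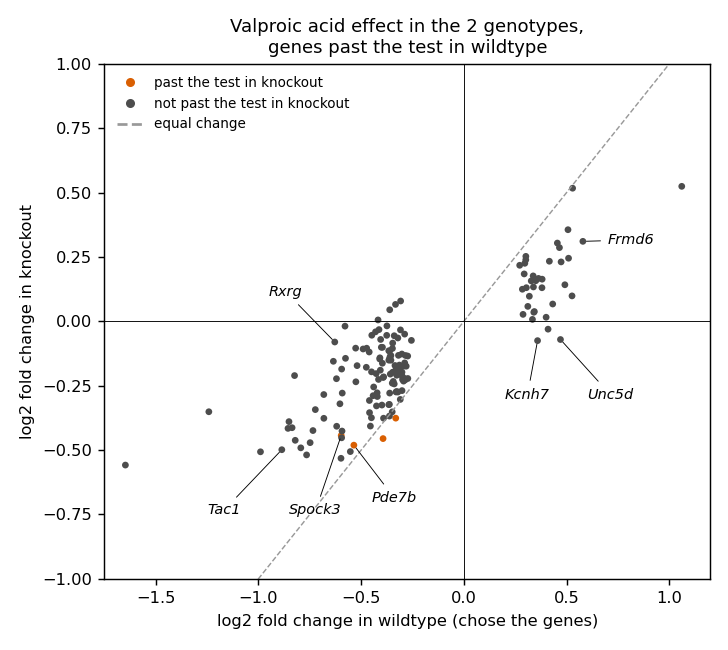
Log2 fold changes after valproic acid in wildtype (horizontal) and in Notch knockout (vertical) for 160 of the 161 genes called in wildtype, leaving out 1 unnamed gene with a value of 3.77 in wildtype. Orange points were also called in knockout (4 genes), and most points lie between the dashed line of equal change and 0.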

How the data were processed

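RNA was extracted with a column kit, depleted of ribosomal RNA and made into libraries with an NEBNext Ultra kit, per the labels' protocols. HISAT2 and the mouse build GRCm39 are named, with no version, per the submitters' processing notes; which counter, annotation release and strand setting were used was not given in the sources used here. Deposited values are raw counts per Ensembl gene made by the authors, with no normalisation, for 56748 genes, of which 22955 had no count. Symbols for 52073 identifiers, with 99.5% of counts, came from a GENCODE annotation of the earlier build GRCm38, as did transcript lengths and GC content.

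Genes were filtered with filterByExpr over 4 groups, leaving 17995, and scaled by TMM (factors 0.93 to 1.02). All 12 libraries entered 1 robust quasi-likelihood model of group means in edgeR 4.0.16 (R 4.3.3), and contrasts were tested two-sided, with p-values adjusted by Benjamini-Hochberg across the tested genes. CPM use counts in tested genes as the library total. Alternatives used limma 3.58.1, DESeq2 1.42.0 and other filters, scalings and sets of libraries, and the closing section gives their effect. The fits were tested on simulated counts with known changes.

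The comparison, 40 gene lists and the rule for naming genes were chosen with earlier results of these data known, and 7 lists were added after values were seen. The rule took the 15 largest falls and rises among called genes that averaged 1 CPM or more and whose groups were apart, skipping predicted and unnamed genes, up to 4 called members per list and the first 3 tested members of each list; not every gene it takes is printed. Genes named outside it were chosen after their values were seen: 9630013A20Rik, Adcy5, Adra2c, Arc, Calb2, Chgb, Chrm4, Dpy30, Egr4, Eif3e, Eif3i, Eif3m, Eif4a2, Emx1, Fezf2, Foxp1, Gm13835, Gm30177, Gm6863, Gpr6, H3f3a, Kcnab3, Kcnc1, Kcnd2, Nr1d1, Osbpl8, Pcp4l1, Pkia, Psma3, Psmb6, Psmc6, Rasd2, Rasgrp2, Slc17a7, Spock3, Taf15, Tmem68 and Trim23. Some genes are not reported here. Library totals were 16887885 to 24944681, with 3 libraries a group.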

Additional observations from a re-analysis of the deposited data

How the results depend on the processing

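The 161 called genes kept their direction under every alternative in which they could be fitted. Where libraries were left out this was largely fixed in advance, since no called gene overlapped between groups. The number of genes higher and lower after valproic acid, 37 and 124, stayed within 1.5 times under DESeq2's size factors, removal of mitochondrial genes, a filter at 1 CPM, limma-voom and a fit of only the wildtype libraries, apart from those given next. It was 199 and 313 with no count filter, 89 and 244 with DESeq2's Wald test, 18 and 51 with a term for the presence of Xist, 15 and 25 without both libraries lacking Xist, 4 and 8 with both libraries that stand apart left out, and 12 and 68 with the offset for GC content and length. With 1 library left out it ranged from 1 to 36 and from 13 to 119. The interaction called 0 genes, against 5 with no filter, 4 without both libraries lacking Xist, and 0 to 1 with 1 library left out, 1 of these without knockout replicate 1 or exposed knockout replicate 1. The causes were not tested.

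With the replicate number as a block the counts were 28 and 87, and 104 of the 161 were among them. Same-numbered libraries did not deviate together (correlations of deviations from the group means -0.06 to 0.03), so the numbers were not taken to pair the libraries. Calb2, Cdhr1, Avp and Oxt, of the olfactory bulb and hypothalamic lists, reversed without untreated replicate 3 (log2 0.09, 0.02, 0.40 and 1.15), and Calb2, Avp and Oxt also with both libraries left out (0.13, 0.94 and 1.70). Notch1 became 0.0092 without untreated replicate 1 and Chrm4 became -0.012 without exposed replicate 2. With 1 wildtype library left out the log2 fold changes ranged from -1.55 to 0.094 for Calb2, -2.01 to 0.024 for Cdhr1, -4.55 to 0.40 for Avp, -6.33 to 1.15 for Oxt, -0.14 to 0.0092 for Notch1 and -0.012 to 0.25 for Chrm4. None of these genes was called. Of 845 list medians under alternatives, 51 moved by more than 1 SD of the list mean between libraries.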
